A study of Mus musculus with 10 samples.

Results

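Clec4d, Fcgr3, Fcgr2b, Fcer1g, Itgb2, Itgam, Ptprc, Lcp1 and Coro1a are genes known for their use in leukocytes. They were measured here in RNA of primary mouse embryonic fibroblast cultures given serum. Every probe set whose platform annotation gives 1 symbol equal to one of these 9 genes was taken, which gave 13 probe sets of the 12422 that are no controls. On the whole array, 10833 probe sets have 1 symbol and stand for 8251 genes. Of 5 probe sets that could be tested, that of Clec4d alone passed for a serum response (0.891% of all tested did), and the call was lost without any of 4 single arrays, without the low-level filter, without a variance trend and in a fit of all 10 arrays. Clec4d was higher in serum-treated than in starved RNA of each pool, by 1.77 ± 0.26 log2 units (SE) over polyribosome and cytoplasmic RNA.

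All cultures carried the genotype C57/BLACK6, ATF1 +/-, so no array comes from cells with both copies of Atf1 intact, and the cells were taken from e14.5 embryos. The probe set annotated to Atf1 is shared with an Atf1 pseudogene, and the level of Atf1 was not analysed here. All cultures were starved for 48 h in 1% dialyzed serum. They were then kept for 2 h in medium with 10% serum (serum-treated) or 1% serum (starved). Per the labels, polyribosome RNA and undertranslated RNA are parts of a sucrose gradient, the undertranslated part holding mRNA with at most 1 ribosome, from cultures given cycloheximide, which halts ribosomes, at 100 ug/ml for 30 min. Cytoplasmic RNA came from cultures without cycloheximide. The 10 arrays form 6 groups: 2 serum-treated and 2 starved arrays of polyribosome RNA, 2 and 2 of undertranslated RNA, and 1 and 1 of cytoplasmic RNA. In each gradient group replicate 2 came from cultures labelled with 4-thiouridine at 200 uM, a nucleoside taken up into new RNA, and with 3H-cytidine, and replicate 1 from unlabelled cultures. Each gradient array holds fractions pooled from several cultures; a p-value here therefore rests on how far pools differ, and part of that may be technical. The polyribosome and undertranslated arrays of a number may come from the same cultures, and no fit had a term for cultures shared by the fractions of a serum state; the replicate block used as an alternative is the number across all groups. The series asks how mRNA levels and their translation respond early to serum.

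Cells of the myeloid lineage, such as macrophages, neutrophils and mast cells, sense antibody-coated particles and microbes with Fc receptors and C-type lectins. These receptors signal through short adaptor chains with tyrosine motifs (ITAMs), which recruit the kinase Syk. The receptors act with beta-2 integrins, which bind cells to ligands, and with actin-binding proteins that shape the phagocytic cup and the leading edge. Primary fibroblast cultures are made from whole embryo tissue and can hold some tissue macrophages. In RNA from whole cultures, fewer cells of a type and less RNA per cell cannot be told apart.

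The starts of 4 genes are printed. Each has a probe set higher on serum-treated than on starved polyribosome and cytoplasmic arrays without overlap, as were 4.75% of all probe sets. That of Fcer1g, 162181_f_at, lay above background on no array, and that of Ptprc, 101048_at, on 2 of 10. The other Fcer1g probe set, 160692_at, overlapped between the serum states. Of these genes Clec4d alone passed a test. Another probe set of Ptprc, 101298_g_at, and another of Lcp1, 101327_at, read lower in serum-treated polyribosome RNA, but lay above background on no array. Each window runs from 250 bases before to 50 bases after the start of the gene in RefSeq on GRCm38.p6, 5′ to 3′ on the gene's own strand. Capitals mark matches to GAGGAA or its reverse complement TTCCTC, the core letters of PU.1 type sites (PU.1 is the myeloid transcription factor encoded by Spi1), or to TGANTCA, the AP-1 motif bound by Fos and Jun proteins, on either strand.
Clec4d: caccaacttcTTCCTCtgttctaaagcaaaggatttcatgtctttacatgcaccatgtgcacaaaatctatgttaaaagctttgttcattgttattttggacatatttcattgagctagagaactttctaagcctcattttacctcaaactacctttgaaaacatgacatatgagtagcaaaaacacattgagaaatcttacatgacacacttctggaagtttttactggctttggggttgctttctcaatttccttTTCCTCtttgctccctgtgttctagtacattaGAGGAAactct
Fcer1g: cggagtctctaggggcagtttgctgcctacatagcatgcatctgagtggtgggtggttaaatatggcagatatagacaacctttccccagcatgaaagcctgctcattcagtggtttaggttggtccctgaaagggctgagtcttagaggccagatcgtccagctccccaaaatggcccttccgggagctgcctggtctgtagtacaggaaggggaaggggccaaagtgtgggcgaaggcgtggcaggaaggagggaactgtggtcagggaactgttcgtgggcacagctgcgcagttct
Ptprc: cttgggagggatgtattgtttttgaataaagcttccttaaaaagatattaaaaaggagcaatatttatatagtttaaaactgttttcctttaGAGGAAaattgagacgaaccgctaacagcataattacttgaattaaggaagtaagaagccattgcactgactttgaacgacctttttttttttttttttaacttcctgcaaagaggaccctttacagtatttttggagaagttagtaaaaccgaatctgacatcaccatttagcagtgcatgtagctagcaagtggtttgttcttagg
Lcp1: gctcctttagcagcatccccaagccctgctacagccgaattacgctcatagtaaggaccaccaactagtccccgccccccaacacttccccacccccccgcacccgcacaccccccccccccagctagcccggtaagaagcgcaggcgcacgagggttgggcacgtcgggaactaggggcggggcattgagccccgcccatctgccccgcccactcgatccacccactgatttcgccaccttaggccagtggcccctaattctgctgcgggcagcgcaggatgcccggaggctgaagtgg
The Clec4d window is chr6:123261857-123262156 on the plus strand, and the Fcer1g window is chr1:171234300-171234599 on the minus strand. The Ptprc window is chr1:138175256-138175555 on the minus strand, and the Lcp1 window is chr14:75130873-75131172 on the plus strand. Ptprc and Lcp1 have 2 starts in the table, and the most upstream is shown.

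Of the 9 genes, 8 had a window in that table, and Itgb2 is named only. In the most upstream window of each gene the PU.1 type letters occurred in 4 of 8 genes, Clec4d, Fcgr3, Itgam and Ptprc, against 28.28% of all 32851 windows of this length. Clec4d held 3 matches, starting at positions -240, 7 and 39 counted from the end of the 250 bases before the start, and Ptprc held 1 at -158. The Fcer1g and Lcp1 windows held none, nor did those of Fcgr2b and Coro1a. The AP-1 letters occurred in none of the 8 windows and in 7.808% of all windows. A match describes the letters only, and does not show that a factor binds there.

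Median intensity ran from 45.3 to 54.25 on polyribosome arrays, from 5.7 to 8.8 on undertranslated arrays and from 19.1 to 19.2 on cytoplasmic arrays, so the undertranslated arrays were the dimmest. The background of an array, 6.7 to 16.1 intensity units, was the brightest reading among 19 control probe sets for bacterial and yeast genes. Log2 values of the 2 serum-treated arrays correlated across probe sets at 0.968 in polyribosome and 0.792 in undertranslated RNA, and those of the starved arrays at 0.969 and 0.890. The number of arrays limits the precision throughout. Of 13 fibroblast markers measured (for example Col1a1, Fn1 and Vim), 13 lay above background on every polyribosome and cytoplasmic array and 11 to 12 on the undertranslated arrays. Intensities below are as the authors deposited them; log2 values are quantile normalized over the 10 arrays.

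Clec4d encodes a C-type lectin, also called MCL, which pairs with the lectin Mincle (Clec4e) and signals through the Fcer1g chain. In polyribosome RNA its intensity was 109.4 and 148.9 on the serum-treated arrays, against 20.9 and 39.7 on the starved arrays. In undertranslated RNA it was 10.9 and 24.7 on the serum-treated arrays, against 8.5 and 5.0 on the starved arrays. In cytoplasmic RNA it was 66.0 on the serum-treated array, against 15.0 on the starved array. The serum-treated arrays were above the starved arrays in all 3 pools without overlap. Clec4d lay above background on 9 of 10 arrays, starved undertranslated replicate 2 being below. Its mean log2 level was 6.19 ± 0.58 (SD, n = 2) in serum-treated undertranslated, 5.90 (n = 1) in serum-treated cytoplasmic and 5.55 ± 0.28 in serum-treated polyribosome RNA. The starved groups followed, at 4.10 in cytoplasmic RNA (n = 1), 4.02 ± 0.76 in undertranslated RNA and 3.80 ± 0.62 in polyribosome RNA (SD, n = 2). Within the serum-treated groups, and within the starved groups, neighbours in this order differed by less than or about their spread, whereas the step between serum-treated polyribosome and starved cytoplasmic RNA was larger than each of these SDs.

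**Figure D1:**
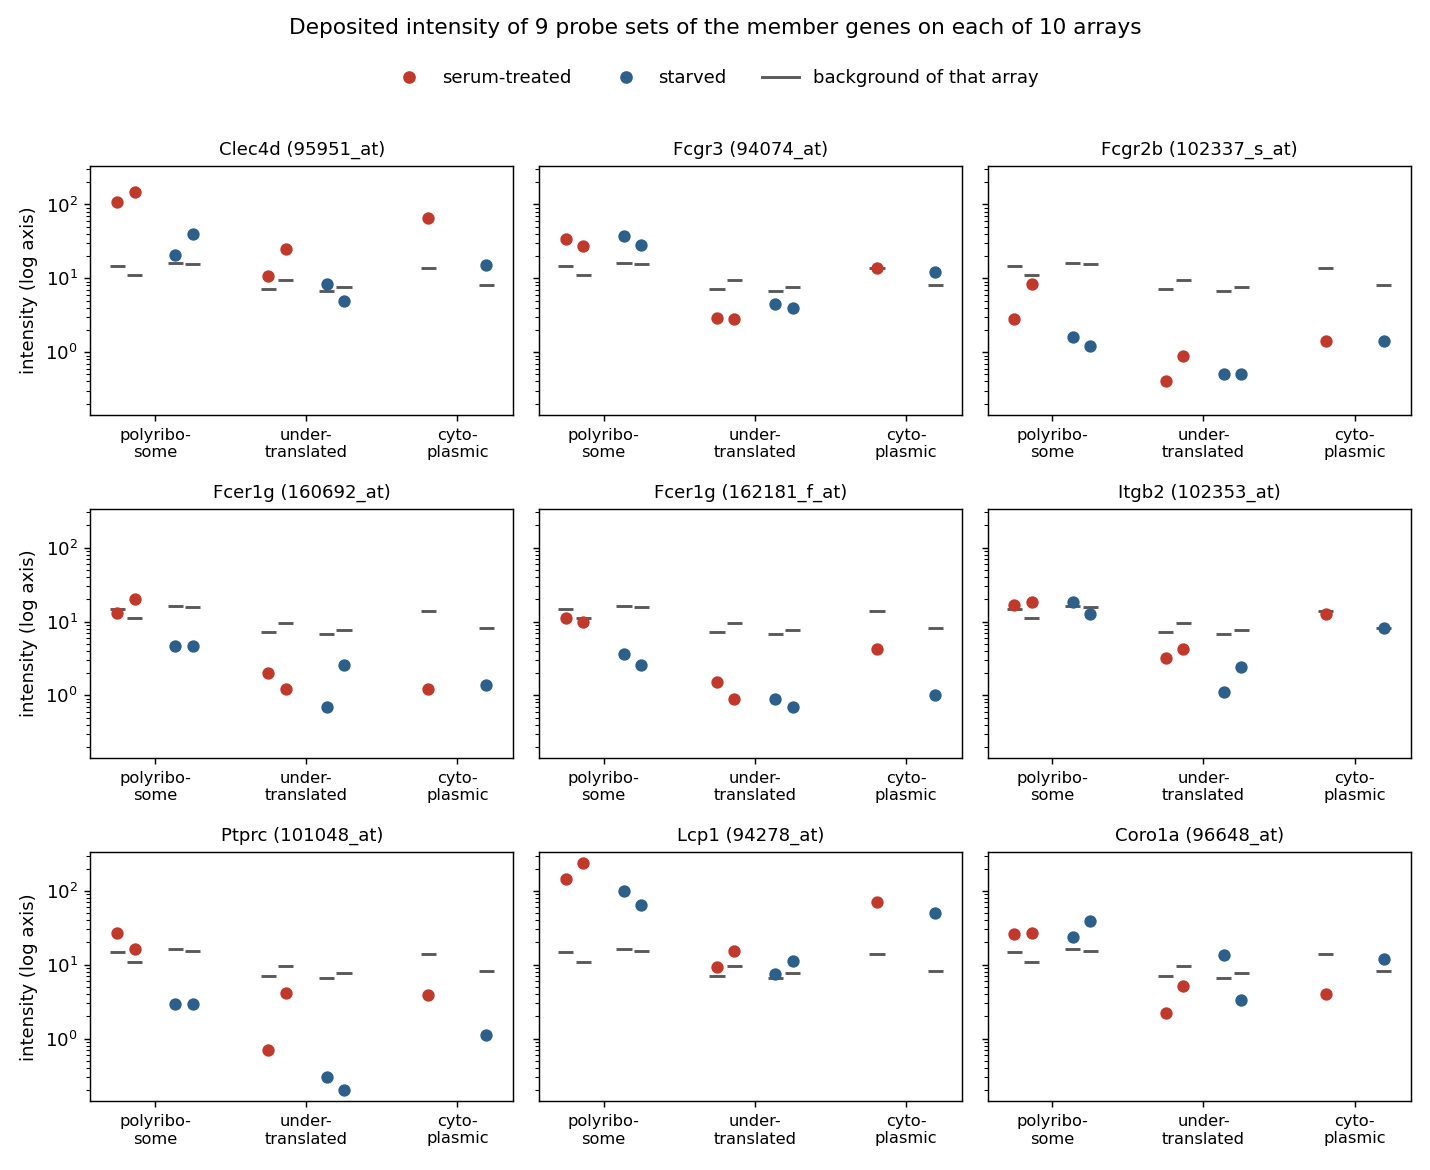
Deposited intensity (log axis) of the 9 member probe sets with the highest readings, of 13, on each array, grouped by RNA pool, with serum-treated arrays left of starved arrays and a dash at each array's background. Clec4d sits at 109.4 and 148.9 on the serum-treated polyribosome arrays, against 20.9 and 39.7 on the starved ones, while Fcgr2b stays below background on all 10 arrays.

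Serum-treated and starved RNA were compared over the 6 polyribosome and cytoplasmic arrays, with the pool as a covariate. Of the 13 probe sets, 5 passed the filter on low levels and were tested (Clec4d, Fcgr3, Itgb2, Coro1a and Lcp1 94278_at), and 8 were not. Clec4d was higher in serum-treated RNA by 1.77 ± 0.26 log2 units (SE; limma adjusted p = 0.0199), and it was the 1 of 5 that passed. Over all 9316 probe sets tested, 0.891% passed. Clec4d did not pass without the low-level filter (limma adjusted p = 0.066), without a variance trend (0.0706) or with all 10 arrays in 1 model (0.593, where 0 of 9316 passed). The higher share was 0.666% of all tested, 62 of the 83 that passed, against 47 of 75 with the values as deposited and 19 of 64 with scaling by hybridization controls, under which the median of all was -0.39 log2 units. Clec4d passed under both of those scalings as well. Leaving out either cytoplasmic array left the estimate at 1.75. The limma adjusted p was 0.188 without the starved array and 0.199 without the serum-treated array. In both fits the pool term takes up the remaining cytoplasmic array, so both give the same difference, over the polyribosome arrays alone. Without starved polyribosome replicate 1 the difference was 1.52 (limma adjusted p = 0.0643), and without serum-treated polyribosome replicate 2 it was 1.66 (0.0997). With the replicate number as a block, 149 of all probe sets passed in place of 83, and Clec4d passed in both.

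Fcgr3 and Fcgr2b encode receptors for immunoglobulin G: Fcgr3 is an activating receptor that needs the Fcer1g chain, and Fcgr2b is the inhibitory one. Fcgr3 had an intensity of 34.5 and 27.5 on the serum-treated polyribosome arrays, against 37.3 and 27.9 on the starved polyribosome arrays. It had 2.9 and 2.8 in serum-treated undertranslated RNA, against 4.5 and 3.9 in starved undertranslated RNA, and 13.6 in serum-treated cytoplasmic RNA, against 12.1 in starved cytoplasmic RNA. The serum states overlapped in polyribosome RNA, and all undertranslated values lay below background. The difference over polyribosome and cytoplasmic RNA was 0.04 ± 0.22 log2 units (SE; limma adjusted p = 0.962), and its sign was negative, at -0.27, with scaling by hybridization controls. The Fcgr2b probe set 102337_s_at read 2.8 and 8.3 on the serum-treated polyribosome arrays, against 1.6 and 1.2 on the starved ones, and 0.4 to 1.4 on all other arrays. It lay above background on no array, so these are readings near the array's floor. On mouse chromosome 1, Fcgr4 is the 1 protein-coding gene between Fcgr2b and Fcgr3, and 7 lie between Fcgr3 and Fcer1g.

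Fcer1g encodes the common gamma chain that carries the ITAM for Fcgr3, Clec4d and other receptors. Probe set 160692_at had 13.2 and 20.0 on the serum-treated polyribosome arrays, against 4.6 and 4.6 on the starved ones. On the undertranslated arrays it had 2.0 and 1.2 in serum-treated RNA, against 0.7 and 2.6 in starved RNA, and on the cytoplasmic arrays 1.2 in serum-treated RNA, against 1.4 in starved RNA. The serum states were apart in polyribosome RNA only and overlapped or were nearly equal elsewhere. Of these values, the 20.0 of serum-treated polyribosome replicate 2 alone lay above background, so no fold is given. The other probe set, 162181_f_at, read 11.3 and 9.8 on the serum-treated polyribosome arrays, against 3.6 and 2.6 on the starved ones, and 4.3 in serum-treated cytoplasmic RNA, against 1.0 in starved cytoplasmic RNA. It lay above background on no array. The 2 probe sets point opposite ways in the cytoplasmic pair, at 1.07 log2 units for 162181_f_at and -0.17 for 160692_at, with all 4 readings below background.

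Itgb2 encodes CD18, the beta-2 integrin chain shared by leukocyte integrins, and Itgam encodes CD11b, its alpha partner in the complement receptor Mac-1. Itgb2 had an intensity of 16.6 and 18.3 on the serum-treated polyribosome arrays, against 18.6 and 12.6 on the starved ones. It had 3.2 and 4.3 in serum-treated undertranslated RNA, against 1.1 and 2.4 in starved undertranslated RNA, and 12.6 in serum-treated cytoplasmic RNA, against 8.1 in starved cytoplasmic RNA. The polyribosome groups overlapped, the undertranslated groups did not, and 3 of 10 values lay above background. Over polyribosome and cytoplasmic RNA the difference was 0.27 ± 0.26 log2 units (SE; limma adjusted p = 0.746). Itgam read 1.0 to 3.3 over the 10 arrays and lay above background on none, so the chain that defines Mac-1 on myeloid cells was not detected above background here.

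Ptprc encodes CD45, a tyrosine phosphatase present on nucleated blood cells that controls Src-family kinases. Probe set 101048_at had an intensity of 27.3 and 16.3 on the serum-treated polyribosome arrays, against 2.9 and 2.9 on the starved ones. It had 0.7 and 4.1 in serum-treated undertranslated RNA, against 0.3 and 0.2 in starved undertranslated RNA, and 3.9 in serum-treated cytoplasmic RNA, against 1.1 in starved cytoplasmic RNA. The serum-treated values were the higher in each pool, but 2 alone lay above background, both on serum-treated polyribosome arrays. The level there was at least 1.28-fold higher than in starved polyribosome RNA. For this bound each starved reading was raised, where it was lower, to the dimmest reading of that array that exceeded background. The other Ptprc probe sets, 101297_at and 101298_g_at, read 0.1 to 4.5 and 0.4 to 2.8 and lay above background on no array. In polyribosome RNA 101298_g_at read lower on the serum-treated arrays without overlap, the opposite of 101048_at.

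Lcp1 encodes L-plastin, the plastin of leukocytes, which bundles actin filaments, and Coro1a encodes coronin 1A, which binds actin and the Arp2/3 complex. Lcp1 (94278_at) had an intensity of 142.8 and 236.7 on the serum-treated polyribosome arrays, against 98.2 and 64.9 on the starved ones. It had 9.3 and 15.4 in serum-treated undertranslated RNA, against 7.6 and 11.2 in starved undertranslated RNA, and 70.4 in serum-treated cytoplasmic RNA, against 50.5 in starved cytoplasmic RNA. It lay above background on all 10 arrays. The serum states were apart in polyribosome RNA and overlapped in undertranslated RNA, and after scaling they were apart in both. The mean log2 level was 5.99 ± 0.46 (SD, n = 2) in serum-treated polyribosome, 5.98 (n = 1) in serum-treated cytoplasmic and 5.55 ± 0.21 in serum-treated undertranslated RNA, against 4.91 ± 0.17, 5.49 (n = 1) and 4.59 ± 0.30 in the same pools of starved cells. Starved cytoplasmic RNA was thus close to serum-treated undertranslated RNA in the order of levels. The difference over polyribosome and cytoplasmic RNA was 0.88 ± 0.23 log2 units (SE) and did not pass (limma adjusted p = 0.159). The other Lcp1 probe set, 101327_at, read 0.8 to 7.0 over the 10 arrays, lay above background on none and was lower on the serum-treated polyribosome arrays, at 4.5 and 3.2 against 7.0 and 6.7. In the cytoplasmic pair it read the other way, at 5.2 in serum-treated against 2.5 in starved RNA.

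Coro1a had an intensity of 26.4 and 27.1 on the serum-treated polyribosome arrays, against 24.0 and 38.9 on the starved ones. It had 2.2 and 5.2 in serum-treated undertranslated RNA, against 13.7 and 3.3 in starved undertranslated RNA, and 4.0 in serum-treated cytoplasmic RNA, against 11.9 in starved cytoplasmic RNA. Both gradient pools overlapped between the serum states, and the cytoplasmic pair differed by -1.30 log2 units, with no replicate. Over polyribosome and cytoplasmic RNA the difference was -0.49 ± 0.33 log2 units (SE; limma adjusted p = 0.611).

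**Figure D2:**
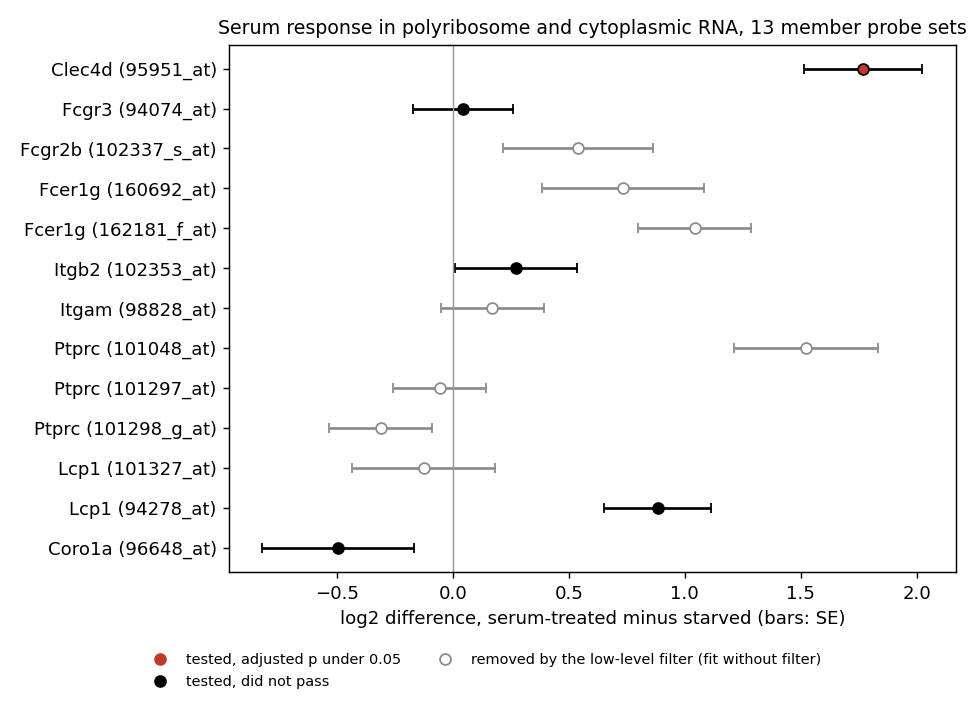
Difference of the 13 member probe sets between serum-treated and starved polyribosome and cytoplasmic RNA (log2 units, serum-treated minus starved, bars are SE), with tested probe sets filled and the 8 removed by the low-level filter open, taken from a fit without the filter. Clec4d at 1.77 is the 1 that passed; Ptprc 101048_at at 1.52 and Fcer1g 162181_f_at at 1.04 had no tested value.

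Without the low-level filter all 13 probe sets could be fitted, among 12422 of which 0.193% passed. limma then called 0 of the 13, with 4 at an unadjusted p under 0.05, against 10.1% of all, and Clec4d had limma adjusted p = 0.066. Ptprc 101048_at was estimated at 1.52 ± 0.31 log2 units (limma adjusted p = 0.124) and Fcer1g 162181_f_at at 1.04 ± 0.24 (adjusted p = 0.182). Fcer1g 160692_at was at 0.73 ± 0.35 and Fcgr2b at 0.54 ± 0.32, with adjusted p = 0.535 and 0.626, while Itgam was at 0.17 ± 0.22 (adjusted p = 0.84). On scaled values the 3 serum-treated polyribosome and cytoplasmic arrays lay above the 3 starved arrays without overlap in 4 of 13 probe sets (Clec4d, Lcp1 94278_at, Ptprc 101048_at and Fcer1g 162181_f_at), against 4.75% of all 12422. They lay below them in 1, Ptprc 101298_g_at, against 4.49%. On the polyribosome arrays alone, 6 of 13 were higher without overlap, against 16.1% of all, and 2 lower (Ptprc 101298_g_at and Lcp1 101327_at), against 17.6%. The 6 include the 2 probe sets of Fcer1g. Of the 6, Fcgr2b and Fcer1g 162181_f_at lay above background on no array, nor did the 2 lower ones. On the undertranslated arrays 5 of 13 were higher without overlap (Clec4d, Itgb2, Itgam, Ptprc 101048_at and Lcp1 94278_at), against 20.8% of all, and none lower, against 19.8%. Itgb2, Itgam and Ptprc 101048_at lay above background on no undertranslated array, so their part in this count rests on readings near the floor.

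The pools were then taken apart. In polyribosome RNA alone, limma over the 8 gradient arrays called 0 of the 5 tested probe sets for a serum difference, and 0% of all 9316, and 2 of the 5 had an unadjusted p under 0.05 against 1.73% of all. Clec4d was at 1.75 ± 0.56 log2 units and Lcp1 at 1.08 ± 0.42 (limma adjusted p = 1 for both), with Itgb2 at 0.18, Fcgr3 at 0.02 and Coro1a at -0.09. In undertranslated RNA limma called 0 of 5, against 1.07% of all, with 2 at an unadjusted p under 0.05 against 18.9% of all. There Clec4d was at 2.16 ± 0.56 (limma adjusted p = 0.101), Itgb2 at 1.29 ± 0.52 (0.236) and Lcp1 at 0.96 ± 0.42 (0.265), with Fcgr3 at -0.27 (0.782) and Coro1a at -0.86 ± 0.79 (0.566). Itgb2 and Fcgr3 lay above background on no undertranslated array and Coro1a on 1, so their differences there rest on readings near the floor.

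The cytoplasmic pair has 1 array a group and no test. Clec4d was 1.80 log2 units higher in the serum-treated array, outside the range from the 5th to the 95th percentile of all tested probe sets, -1.10 to 1.06. Coro1a at -1.30 lay outside that range on the other side, and Lcp1 94278_at at 0.49, Itgb2 at 0.46 and Fcgr3 at 0.09 lay within it. The test of whether the serum difference itself differed between polyribosome and undertranslated RNA called 0 of 5 by limma and 0% of all, with none of the 5 and 7.73% of all at an unadjusted p under 0.05. The interaction was -0.41 ± 0.79 log2 units for Clec4d and -1.11 ± 0.74 for Itgb2, with limma adjusted p from 0.736 to 0.963 over the 5. For Itgb2 it rests on undertranslated readings that all lay below background.

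How far these mRNAs sat on polyribosomes depended on the scaling of the arrays. With quantile normalization limma called 0 of 5 for polyribosome against undertranslated RNA, while 54.2% of all probe sets passed, and none of the 5 had an unadjusted p under 0.05, against 60.1% of all. The difference was 0.70 ± 0.35 log2 units for Fcgr3 (limma adjusted p = 0.12), 0.38 ± 0.37 for Itgb2 and 0.38 ± 0.30 for Lcp1, and 0.05 ± 0.56 for Coro1a and -0.43 ± 0.40 for Clec4d. On the values as deposited all 5 were higher in polyribosome RNA, by 2.13 to 3.35 log2 units, where the median of all probe sets was 3.02. Of all probe sets 92.3% passed there. Lcp1, above background on all of these arrays, stood above that median, and Clec4d, above background on 3 of the 4 undertranslated arrays, stood below it at 2.38. Fcgr3 and Itgb2 lay above background on 0 of the 4 undertranslated arrays and Coro1a on 1, so their differences have no measured undertranslated level behind them and no place against the median is read from them. The Clec4d difference was thus below 0 under quantile normalization and above 0 on the deposited values.

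**Figure D3:**
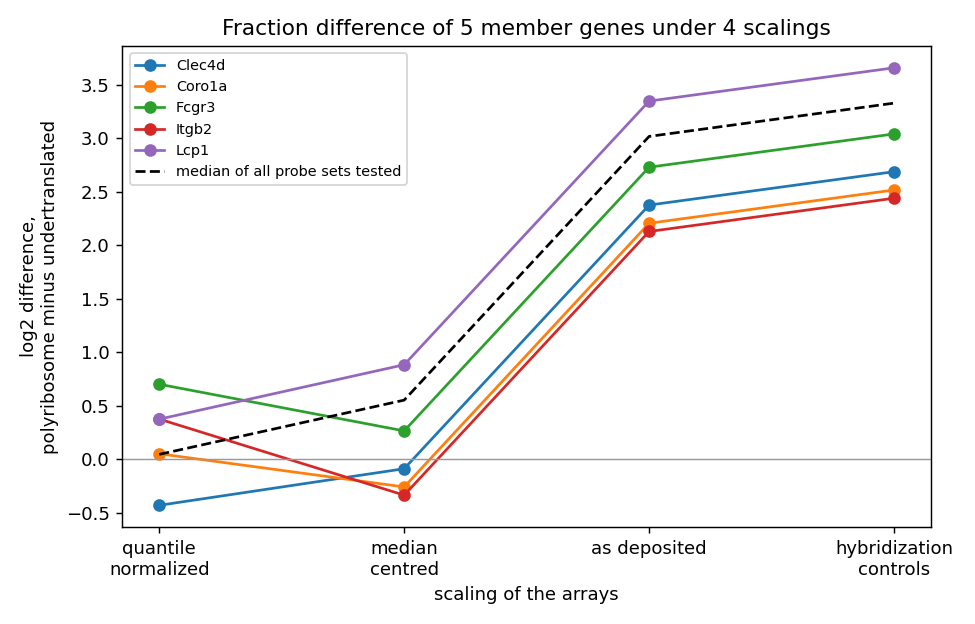
Difference between polyribosome and undertranslated RNA (log2 units, polyribosome minus undertranslated) of the 5 tested member genes under 4 scalings of the arrays, with the median of all probe sets as a dashed line. The median moves from 0.05 under quantile normalization to 3.02 on the values as deposited, and Clec4d moves from -0.43 to 2.38.

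Against total cytoplasmic RNA, limma called 0 of 5 for polyribosome RNA, against 26.4% of all, and none of the 5 had an unadjusted p under 0.05, against 39.1% of all. The largest estimates of the 5 were 0.61 ± 0.35 log2 units for Coro1a (limma adjusted p = 0.224) and -0.44 ± 0.28 for Itgb2 (0.275), and Clec4d was at -0.32 ± 0.27 (0.418). On the values as deposited 4 of the 5 passed, against 76.8% of all at a median of 1.31, and Clec4d at 0.91 and Lcp1 at 1.01 were then higher in polyribosome RNA. These pools differ in cycloheximide as well, and the effect of the drug and that of the pool cannot be told apart. Labelled against unlabelled cultures, limma called 0 of 5 and 0% of all, with none of the 5 and 6.46% of all at an unadjusted p under 0.05. The 5 estimates ran from -0.34 for Fcgr3 to 0.28 for Lcp1.

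Other genes of the same functions were given by lists, 1 probe set per gene, in the comparison of serum-treated with starved polyribosome and cytoplasmic RNA. The members' median over the 5 tested was 0.27 log2 units, against -0.01 for all probe sets. Of the Fc receptor and ITAM signalling genes 17 of 25 were measured and 15 tested: 1 rose, none fell and the median was 0.30. That gene was Tyrobp, the DAP12 adaptor chain, at 1.43 ± 0.25 (SE; limma adjusted p = 0.0366). It passed in none of the fits that left out 1 of the 6 arrays (adjusted p from 0.0524 to 0.151). Of other leukocyte adhesion and pattern receptors, 21 of 30 were measured and 12 tested. Cd14, a co-receptor for lipopolysaccharide, rose by 1.10 ± 0.18 (limma adjusted p = 0.0324), none fell and the median was 0.10. The Cd14 call was lost on the values as deposited (limma adjusted p = 0.0684) and in 5 of the 6 fits that left out 1 array, the exception being starved polyribosome replicate 2 (0.0426). Clec4e was removed by the low-level filter and lay above background on 1 array.

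Of other leukocyte cytoskeleton and Rac regulators, 14 of 20 were measured and 11 tested. Cytip, a cytohesin-binding protein, rose by 1.28 ± 0.19 (limma adjusted p = 0.0223), none fell and the median was 0.42. Its call was lost in the same 5 fits that left out 1 array, where adjusted p ran from 0.065 to 0.178, and passed without starved polyribosome replicate 2 (0.0339). Tyrobp, Cd14 and Cytip also did not pass with scaling by hybridization controls, without the filter, without a variance trend or with all 10 arrays in 1 model. For related genes used outside leukocytes, such as Pls3, Coro1c and Itgb1, 13 of 15 were measured and 11 tested. Of these limma called 0, 1 had an unadjusted p under 0.05 against 11.7% of all, and the median was 0.26. In that list Coro1c was at 0.59 ± 0.22 (limma adjusted p = 0.353), Pls3 at -0.18 ± 0.24 (0.823) and Itgb1 at -0.04 ± 0.17 (0.949). These 3 were named after their values were seen. The share of called genes was 1 of 15, 1 of 12, 1 of 11 and 0 of 11 in the 4 lists, beside 0.891% of all.

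Markers of cell types that such cultures can hold were read beside the members. All 21 macrophage markers that are no members were measured and 19 were tested. Of the 19, 6 rose and none fell, with a median of 0.93 log2 units, while 0.666% of all probe sets tested rose. An unadjusted p under 0.05 by limma was found for 12 of the 19, against 11.7% of all. Ctss, a lysosomal cathepsin of phagocytes, rose by 1.73 ± 0.17 (SE; limma adjusted p = 0.00532), Lyz2, the lysozyme of macrophages and neutrophils, by 1.67 ± 0.26 (0.0257) and Laptm5 by 1.41 ± 0.25 (0.0388). Tyrobp and Cd14, in the lists above, also belong to the 6. Among defining markers named after their values were seen, Csf1r, the receptor for colony stimulating factor, was at 0.08 ± 0.23 (limma adjusted p = 0.93), Adgre1 at 0.99 ± 0.35 (0.311) and Spi1 at 0.48 ± 0.20 (0.407). Of the 21 markers, Aif1 alone lay above background on no array. On each polyribosome array 18 to 20 of the 21 lay above it. On the cytoplasmic arrays 13 did in starved and 15 in serum-treated RNA, and 10 to 12 on each undertranslated array. The number of macrophage markers that rose was 4 on the values as deposited and 2 with scaling by hybridization controls. It was 1 without the filter, 1 without a variance trend and 0 with all 10 arrays in 1 model. It was also 0 without either cytoplasmic array, 1 without starved polyribosome replicate 1, 1 without serum-treated polyribosome replicate 2, 3 without serum-treated polyribosome replicate 1 and 4 without starved polyribosome replicate 2.

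The summed scaled level of the 21 macrophage markers was 1411 and 1844 in serum-treated polyribosome RNA, against 627 and 638 in starved polyribosome RNA. It was 1046 and 1273 in serum-treated undertranslated RNA, against 668 and 597 in starved undertranslated RNA, and 972 in serum-treated cytoplasmic RNA, against 494 in starved cytoplasmic RNA. After scaling, the macrophage sum was thus higher in serum-treated RNA of each pool, as was Clec4d, and its part in the Clec4d result was not tested. On the deposited intensities the undertranslated sums overlapped, at 182.2 and 335.5 in serum-treated RNA against 199.9 and 214.5 in starved RNA. The summed scaled level of the neutrophil markers was also higher in undertranslated RNA, at 925 and 610 in serum-treated against 449 and 305 in starved RNA. In polyribosome RNA it was 138 and 123 in serum-treated against 153 and 140 in starved RNA. The epithelial sum was higher in each pool, at 89.2 and 104 against 75.1 and 76.0 in polyribosome RNA. It was 298 and 289 against 135 and 138 in undertranslated and 124 against 81.9 in cytoplasmic RNA. The same held without overlap, after scaling, for the Fc receptor, the other leukocyte adhesion and the other leukocyte cytoskeleton lists. The Fc receptor and adhesion lists share genes, such as Tyrobp and Cd14, with the macrophage list. The remaining cell type lists and the related genes used outside leukocytes were not higher without overlap in every pool. On the deposited intensities the undertranslated sums of the epithelial, Fc receptor, adhesion and cytoskeleton lists overlapped between the serum states.

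In the same comparison 0.891% of all 9316 probe sets passed by limma, and 11.7% had an unadjusted p under 0.05. Neutrophil and granule markers gave 0 of 8 called by limma, with 1 at an unadjusted p under 0.05 and a median of -0.22. The brightest of them, Csf3r and Camp, were at 0.03 ± 0.17 and 0.20 ± 0.27. Mast cell and basophil markers gave 0 of 6, with 1 at an unadjusted p under 0.05 and a median of 0.11. Of the 10 measured, 5 lay above background on no array, Fcer1a and Kit among them, and 1 to 4 lay above it on each array. T, NK and B cell markers gave 0 of 5, with none at an unadjusted p under 0.05 and a median of 0.02. Megakaryocyte and erythroid markers had 2 tested genes each, none of which passed by limma, with 1 megakaryocyte marker at an unadjusted p under 0.05. Fibroblast markers gave 0 of 13 called, with 2 at an unadjusted p under 0.05 and a median of 0.17. Endothelial markers gave 0 of 5, with none at an unadjusted p under 0.05 and a median of 0.09, and epithelial markers 0 of 5, with 2 at an unadjusted p under 0.05 and a median of 0.44.

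**Figure D4:**
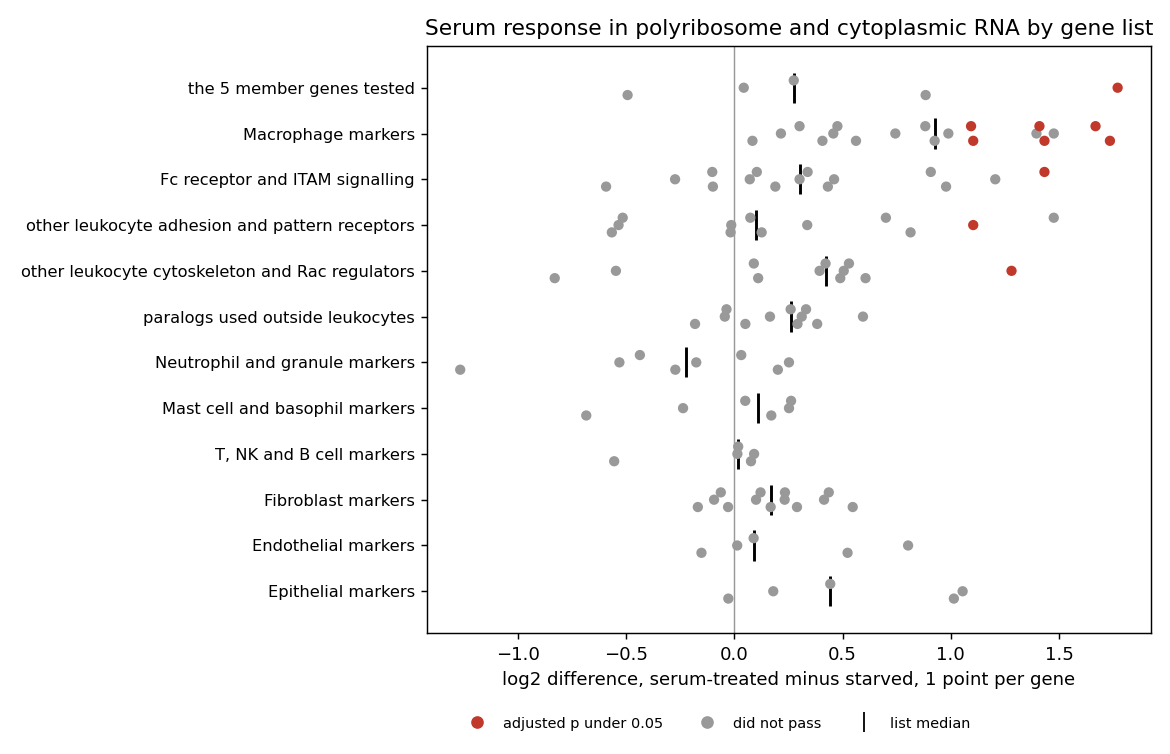
Difference between serum-treated and starved polyribosome and cytoplasmic RNA (log2 units, serum-treated minus starved) for the tested genes of each list, 1 point per gene, with list medians as bars and red points for an adjusted p under 0.05. Of the 19 macrophage markers 6 are red at a median of 0.93, against 1 of the 5 member genes and 0 of 13 fibroblast markers. Over all probe sets tested 0.891% passed.

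The genes whose level over the 10 arrays was most like the mean profile of the members were found among 7306 probe sets by Pearson correlation. These had passed the low-level filter and lay above background on at least 5 arrays. The profile is the mean over member genes of the log2 level centred on each gene's own mean. It gives equal weight to Fcgr2b, Fcer1g, Itgam and Ptprc, whose probe sets did not pass that filter. They lay above background on 0, 1, 0 and 2 of 10 arrays, so the profile rests in part on readings near the floor. Rasd1, a Ras-related G protein, came first at r = 0.885, followed by Has2, a hyaluronan synthase, at 0.868, and Cd93 at 0.858. Noct had 0.853, Cmtm7 0.851, Matn4 0.849, Hbegf, a growth factor that binds heparin, 0.843 and Lilr4b 0.840. The 10 points share the serum states, the scaling and the same arrays, so these values describe likeness only.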

How the data were processed

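Each of 10 RNA samples was copied to cDNA, amplified and biotin-labelled for 1 Affymetrix array, per the labels' protocols. The authors deposited an intensity for every probe set of every array on a linear scale; how they summarised and scaled it is not given in the sources used here. Of 12488 probe sets 66 are controls; of the others 10833 have 1 symbol in GEO's platform annotation, 396 several and 1193 none. Intensities were log2 transformed after adding 1.5 (their 10th percentile), which understates differences of dim genes, and quantile normalized without the controls. Fold changes are on that scale. A filter removed the lowest 25 percent of probe sets by mean level and kept 9316.

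limma 3.58.1 in R 4.3.3 (lmFit, eBayes with a variance trend) fitted the 6 polyribosome and cytoplasmic arrays (3 residual degrees of freedom) and the 8 gradient arrays (4), two-sided, with Benjamini-Hochberg adjustment at 0.05 over all 9316. Python 3.11.15 searched RefSeq promoter windows. The fits were tested on simulated data. The labels number the replicates, and all gradient arrays numbered 2 had 4-thiouridine, which makes the numbers a pairing by treatment; the correlation of same-numbered deviations from group means was 0.275 for the polyribosome groups and 0.0171 to 0.0535 for other pairs of groups. The members, lists, tests and rules were chosen with earlier results of these data known. Every member probe set was reported; of each list the text may name up to 4 genes that passed, those with the largest differences, of cell type lists also the 2 brightest, and the 8 nearest genes; other genes with values, and Clec4e, Aif1, Fcer1a and Kit, were named after their values were seen. Alternatives were 3 other scalings, pseudocounts of 1 and 4.2, no filter and one at the 50th percentile, no variance trend, the replicate block, all 10 arrays in 1 model, 1 probe set per gene, single fractions, and each array left out. Fold bounds hold within this scaling. Probe sets with _s, _f or _g in their names can hold probes shared between transcripts.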

Additional observations from a re-analysis of the deposited data

How the results depend on the processing

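Of 368 recomputed values of single probe sets, 334 kept their direction and their side of the threshold, 17 reversed (2 of them passing, both Clec4d between the fractions), 10 passed anew in the same direction and 7 no longer passed; causes were not tested. The members called for serum over polyribosome and cytoplasmic RNA (1, Clec4d) numbered 0 without a filter, 0 without a variance trend and 0 with all 10 arrays in 1 model, where Clec4d had limma adjusted p = 0.066, 0.0706 and 0.593. They numbered 0 to 1 with each array left out, and Clec4d ran from 1.52 to 2.03 (adjusted p 0.00423 to 0.199). With the replicate block Clec4d stayed at 1.77 (limma adjusted p = 0.00716) and the members called at 1, and the block changed no other call of a member; over all probe sets it gave 52 for serum in undertranslated RNA, against 100 without it.

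Over all probe sets, the 83 called for serum in polyribosome and cytoplasmic RNA became 24 without a filter, 19 without a trend and 0 with all 10 arrays, and ran from 5 to 118 with arrays left out. The 100 in undertranslated RNA became 22 as deposited and 12 with hybridization controls (9 probe sets), and ran from 0 to 2302 with arrays left out; 27 of the 100 were higher, against 7 of 68 with median centring and none of the 22 and the 12.

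For polyribosome against undertranslated RNA the members called (0) numbered 5 on deposited values, 1 after median centring and 5 when scaled to hybridization controls, where 92.3%, 68.1% and 95.4% of all probe sets passed, and 0 to 1 with arrays left out (Fcgr3 at 0.84, limma adjusted p = 0.0484, without serum-treated undertranslated replicate 1). Against cytoplasmic RNA they numbered 4 as deposited, where 76.8% of all passed. Reversed for polyribosome against undertranslated RNA were Clec4d (2.38 as deposited, 2.69 with hybridization controls) and, with median centring, Itgb2 (-0.33) and Coro1a (-0.26). For serum in polyribosome RNA, Fcgr3 reversed as deposited (-0.064) and with hybridization controls (-0.40), as did Itgb2 with those controls (-0.17). Over polyribosome and cytoplasmic RNA, Fcgr3 reversed with hybridization controls (-0.27).

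With arrays left out, Coro1a ran from -0.57 to 0.67 for polyribosome against undertranslated RNA, from -0.44 to 0.27 for serum in polyribosome RNA and from -2.10 to 0.39 in undertranslated RNA. Fcgr3 ran from -0.090 to 0.13 in polyribosome RNA, from -0.013 to 0.11 over polyribosome and cytoplasmic RNA and from -0.55 to 0.0088 in undertranslated RNA. Of the 13 probe sets 8 were too dim to pass the filter on low levels, which limits what can be read of them.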
